A study of Mus musculus with 24 samples.

Results

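The genes described here encode proteins of the lysosome: its acid hydrolases, the proteins that activate or protect them, proteins of its limiting membrane, and the proton pump (V-ATPase) that acidifies it. Members were chosen by name: 39 listed genes, and any locus whose symbol begins with Atp6v or Atp6ap. Of the 39 listed genes 37 had a row in the table, and Ctss and Galns were not analysed here. With 16 V-ATPase loci this gave 53 members of the 9262 loci listed, and all 53 were among the 9251 loci with at least 1 FPKM in at least 4 libraries, which were tested. The unit, FPKM, corrects fragment numbers for transcript length and library size, so levels of different genes can be set side by side within a library. By role the members comprised 9 proteases, 12 glycosidases and sulfatases, 4 lipid hydrolases, 4 activators or protective proteins, 8 membrane proteins, 8 subunits of the V1 sector, 6 of the V0 sector and 2 accessory proteins of the V-ATPase.

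RNA came from 3T3-L1 cells, a mouse fibroblast line that turns into fat cells after hormonal induction, at passage 12 to 15. Wells of 90000 cells received either siCon, a control siRNA, or si14-3-3ζ, which targets 14-3-3ζ. The cells were induced 24 h after transfection with 172 nM insulin, 500 μM IBMX, a phosphodiesterase inhibitor, and 500 nM dexamethasone, a glucocorticoid, and RNA was taken at 0, 24 and 48 h. Each of the 6 groups held 4 libraries of this 1 line. The study refers to independent experiments in general, but the labels do not tie these libraries to separate cultures. The p-values therefore rest on a spread between libraries that may be technical.

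Lysosomal enzymes are made in the endoplasmic reticulum, tagged with mannose 6-phosphate in the Golgi apparatus and carried by receptors to an acidic compartment where they break down protein, glycans and lipids. Many of their genes carry a CACGTG sequence near the start site, often within a longer palindrome known as the CLEAR element, to which the transcription factors TFEB, TFE3 and MITF bind. In other cells these factors are kept in the cytoplasm by phosphorylation through mTORC1 and by binding of 14-3-3 proteins. In fat cells the lysosome takes part in autophagy and in the acid breakdown of lipid.

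RefSeq promoters (mouse build GRCm38.p6, 250 bases before to 50 after the start of transcription) were found for 45 of the 53 members, 51 promoters in all since some genes have several starts. TCACGTGAC was present on either strand in a promoter of 6 members (13.3% of the 45), against 2.04% of the 6710 genes of tested loci with a promoter and 0.895% of 27025 genes in all. The shorter palindrome TCACGTGA, part of the former, was present in 8 members (17.8%, against 2.40% and 1.12%), and CACGTG, the core of both, in 18 (40.0%, against 11.9% and 8.09%). These matches are descriptions of sequence and not evidence of binding. The windows of 100 bases that follow show the 8 members with TCACGTGA, and Lamp1, which has 4 copies of CACGTG. They are written 5′ to 3′ on the strand of the gene with build GRCm38.p6 coordinates. Capitals mark each CACGTG, extended where the bases beside it complete TCACGTGA or TCACGTGAC or its reverse complement.
Lamp1 (chr8:13159075-13159174, + strand): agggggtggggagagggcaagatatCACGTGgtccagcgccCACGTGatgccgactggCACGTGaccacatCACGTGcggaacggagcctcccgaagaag
Ctsa (chr2:164833703-164833802, + strand): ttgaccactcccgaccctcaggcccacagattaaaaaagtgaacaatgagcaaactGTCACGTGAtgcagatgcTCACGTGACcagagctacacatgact
Ctsd (chr7:142387873-142387972, - strand): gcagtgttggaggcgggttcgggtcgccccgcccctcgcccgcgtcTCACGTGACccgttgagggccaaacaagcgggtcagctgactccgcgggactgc
Gla (chrX:134601148-134601247, - strand): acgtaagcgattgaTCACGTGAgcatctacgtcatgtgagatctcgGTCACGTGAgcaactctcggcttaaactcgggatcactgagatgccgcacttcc
Cln3 (chr7:126583306-126583405, - strand): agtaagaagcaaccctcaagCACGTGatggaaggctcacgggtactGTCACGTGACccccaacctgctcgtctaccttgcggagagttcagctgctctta
Mcoln1 (chr8:3500427-3500526, + strand): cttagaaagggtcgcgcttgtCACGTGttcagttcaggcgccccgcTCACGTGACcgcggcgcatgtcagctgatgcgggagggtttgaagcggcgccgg
Atp6v0d1 (chr8:105566035-105566134, - strand): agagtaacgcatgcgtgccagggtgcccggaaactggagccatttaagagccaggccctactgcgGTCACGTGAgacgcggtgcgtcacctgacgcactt
Atp6v0e (chr17:26676326-26676425, + strand): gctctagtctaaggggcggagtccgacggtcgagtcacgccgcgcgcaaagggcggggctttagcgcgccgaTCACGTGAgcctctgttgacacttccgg
Atp6v1a (chr16:44139339-44139438, - strand): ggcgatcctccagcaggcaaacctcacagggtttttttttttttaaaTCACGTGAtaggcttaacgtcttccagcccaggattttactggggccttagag
Copies lay on both sides of the start of transcription: that of Atp6v0e began 2 bases after the first transcribed base, and that of Atp6v0d1 spanned the start.

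Ywhaz, which encodes 14-3-3ζ, stood at 166 ± 12.7, 226 ± 8.39 and 259.9 ± 8.24 FPKM (SD, n = 4) at 0, 24 and 48 h in siCon cells. The si14-3-3ζ cells held 29.5 ± 6.26, 37.6 ± 11.8 and 39.6 ± 11.6 FPKM. The deposited values hold no read counts, so the depth and counting error behind a single FPKM are unknown. Libraries of a group correlated at 0.974 to 0.993 (Pearson r across loci of log2(FPKM + 1)). How the 9262 loci were selected is not stated. Of 9 pre-adipocyte or fibroblast markers 7 had a row, with summed levels of 6381 to 7086 FPKM in siCon and 3526 to 4667 in si14-3-3ζ cells at 0 h. At 48 h these sums were 3284 to 3993 and 2197 to 2558 FPKM. Col1a1 and Col1a2 made up most of the sums at 0 h. At 48 h the means of Pdgfra (51.4 against 70.4) and Pdgfrb (19.5 against 26.6) were higher in si14-3-3ζ than in siCon cells. Those of the other markers with a row were lower. The row of Ly6a also carries Ly6c1. Of 11 macrophage markers only Lyz2, Cd14 and Mpeg1 had a row, with sums of 46.9 to 52.8 and 37.8 to 43.0 FPKM at 0 h and of 5.38 to 6.72 and 7.61 to 10.1 at 48 h. Of these, Mpeg1 was at 0 in 2 libraries. Of 6 endothelial markers only Vwf had a row, at up to 2.39 FPKM. All 10 adipocyte markers had a row and summed to 1710 to 5211 FPKM in siCon and 303 to 768 in si14-3-3ζ cells at 48 h, after 1572 to 1879 and 644 to 774 at 0 h. In such bulk RNA, fewer cells of a type and less RNA per cell cannot be told apart.

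The lysosomal genes were abundant before induction, and most fell with it in both kinds of cell. By 48 h the fall was smaller in si14-3-3ζ cells for 26 of the 53, where 8.69% of all tested loci differed in that direction. Between 24 and 48 h 13 of the 53 rose there, against 9.18% of loci. Leaving out 1 library at a time gave 8 to 15 in place of the 13. The 53 members together made up 15457 ± 526 FPKM in siCon cells at 0 h, 7526 ± 317 at 24 h and 6680 ± 236 at 48 h (SD, n = 4). That was 2.72%, 1.31% and 1.12% of all listed FPKM. In si14-3-3ζ cells the sums were 15184 ± 336, 7894 ± 162 and 8746 ± 237 FPKM, or 2.95%, 1.51% and 1.64%. At 48 h the lowest si14-3-3ζ library (8395 FPKM) lay above the highest siCon library (6957), whereas the libraries of both kinds of cell overlapped at 0 h and at 24 h. As a share of all listed FPKM the libraries were apart at 24 h too (at most 1.39% in siCon and at least 1.41% in si14-3-3ζ cells) and overlapped at 0 h. The most abundant members over all 24 libraries were the cysteine protease cathepsin L (Ctsl, mean 1334 FPKM), Psap (1297) and the tetraspanin Cd63 (1157), which ranked 49, 56 and 69 of all loci.

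**Figure D1:**
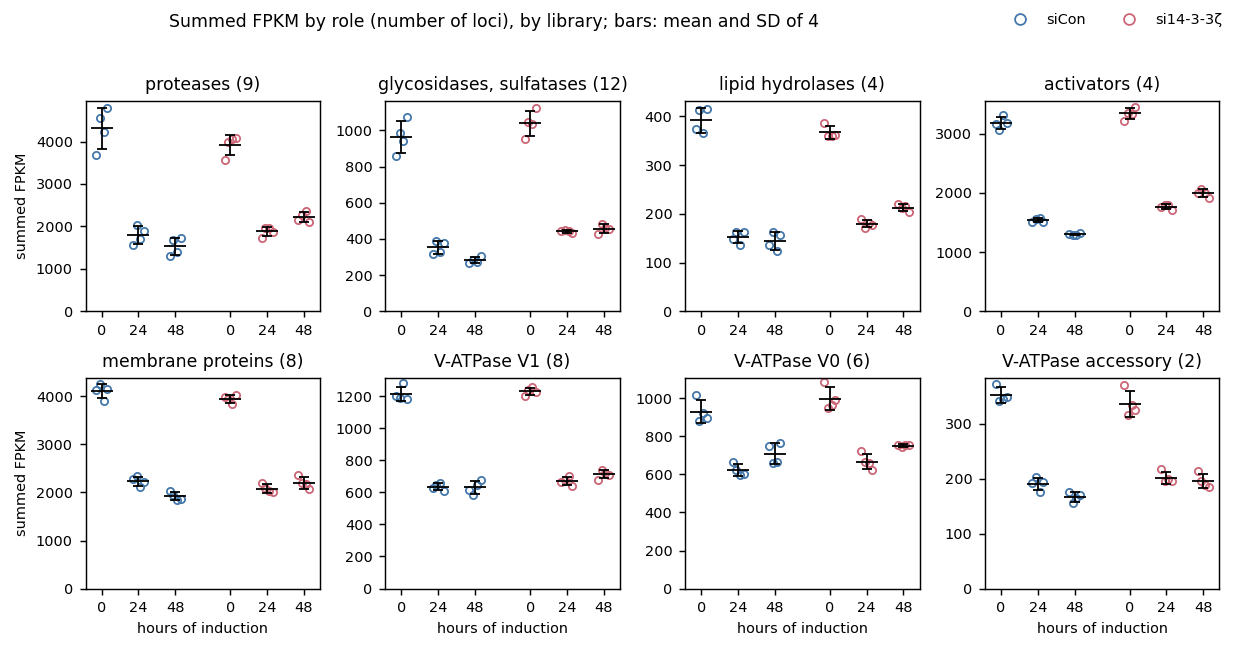
Summed FPKM (vertical axis, from 0) of the members of each role by hours of induction (horizontal axis), each point 1 library, blue siCon and red si14-3-3ζ, with the mean and SD of 4 libraries as bars. Each role fell between 0 and 24 h in both kinds of cell, and at 48 h the si14-3-3ζ libraries of each role except V0 lay above all siCon libraries (activators 1909 to 2072 against 1286 to 1314 FPKM).

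Between 0 and 24 h of induction in siCon cells 49 members fell and 0 rose (limma, Benjamini-Hochberg adjusted p under 0.05, as for each call here), where 33.4% of tested loci fell and 30.8% rose. The count of 0 was also 0 at an unadjusted p under 0.05. By 48 h 51 of the 53 were lower than at 0 h and 1 was higher, against 35.7% and 33.9% of loci. The median log2 fold change of the members was -1.14 at 48 h, where that of all tested loci was -0.02. In si14-3-3ζ cells 48 members fell and 0 rose by 24 h (background 31.9% and 28.3%), and 49 fell and 0 rose by 48 h (29.7% and 26.5%), with a median at 48 h of -0.76. At an unadjusted p under 0.05 these counts of 0 by limma were 0 at 24 h and 1 at 48 h. The same 48 members were lower at 48 h in both kinds of cell, and for 43 of these 48 the fall was smaller in si14-3-3ζ cells. Tested directly, the response from 0 to 48 h differed between the kinds of cell for 27 members, 26 of them with a smaller fall in si14-3-3ζ cells and 1, Scarb2, with a larger fall, against 8.69% and 9.24% of loci. By 24 h the response differed for 3 members, Smpd1, Tpp1 and Atp6v1b2, each with a smaller fall (0.638% of loci, and 0.789% in the other direction). Leaving out 1 library took this count of 3 to 1 for library 3 of siCon at 24 h, libraries 2 or 3 of si14-3-3ζ at 0 h, or libraries 1 or 3 of si14-3-3ζ at 24 h. The comparisons of the responses share their groups with the comparisons at 48 h, so these counts are not separate evidence.

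**Figure D2:**
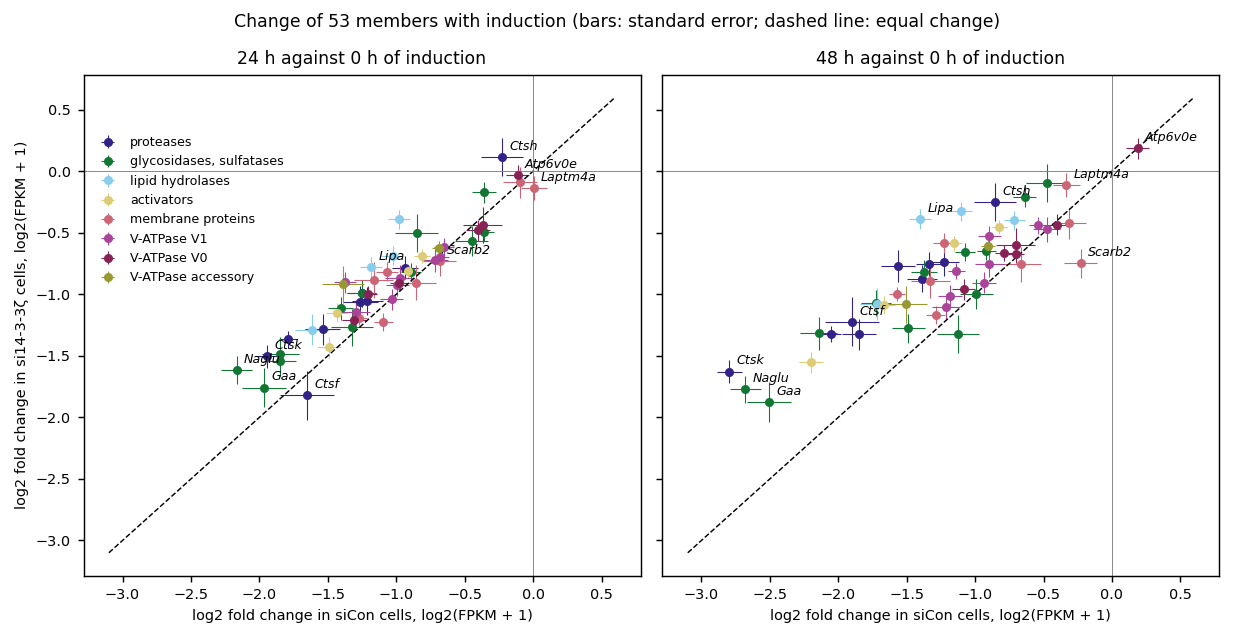
Log2 fold change of each member from 0 to 24 h (left) and from 0 to 48 h (right) of induction, in siCon cells on the horizontal and in si14-3-3ζ cells on the vertical axis, both on the log2(FPKM + 1) scale, with the standard error as bars and the role as colour. At 48 h most points lay above the dashed line of equal change, with Scarb2 below it and Atp6v0e (0.19 in siCon, 0.18 in si14-3-3ζ) at the upper right.

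Between 24 and 48 h the counts ran in opposite directions. In siCon cells 19 members went on falling and 7 rose (17.4% and 13.3% of loci), whereas in si14-3-3ζ cells 1 fell, the sulfatase Arsb, and 13 rose (12.8% and 9.18%). With the replicate number as a block, 2 members fell in si14-3-3ζ cells. Without library 4 of si14-3-3ζ at 24 h or library 2 of si14-3-3ζ at 48 h, 8 members rose in place of 13. Lamp1, Lipa and Psap fell in siCon cells and rose in si14-3-3ζ cells over this day. Some of these calls were lost under an alternative, as given below for each gene. The V-ATPase genes Atp6v0b, Atp6v0d1 and Atp6v1b2 rose in both.

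Against siCon cells of the same time, 14-3-3ζ knockdown raised 5 members and lowered 10 at 0 h (8.10% and 9.16% of loci), and raised 19 and lowered 4 at 24 h (14.5% and 14.0%). It raised 32 and lowered 3 at 48 h (23.3% and 22.8%). The median log2 fold change of the members moved from -0.00 at 0 h to 0.11 at 24 h and 0.37 at 48 h, where those of all tested loci were 0.01, 0.02 and 0.01. The 5 members Arsa, Glb1, Neu1, Psap and Atp6v0d1 were higher at each of the 3 times. Lipa, Scarb2 and Cln3 were lower at each. The proteases, glycosidases and lipid hydrolases together had 19 of 25 raised and 1 lowered at 48 h, and of the V-ATPase loci 6 of 16 were raised. Without library 3 or 4 of si14-3-3ζ the count raised at 0 h was 3, and the count lowered was 6 without library 3 of siCon and 5 without library 3 of si14-3-3ζ at 0 h. At 24 h the replicate number as a block gave 7 lowered members in place of 4. In the same libraries all 10 adipocyte markers were lower at 48 h, and their part in the result was not tested.

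**Figure D3:**
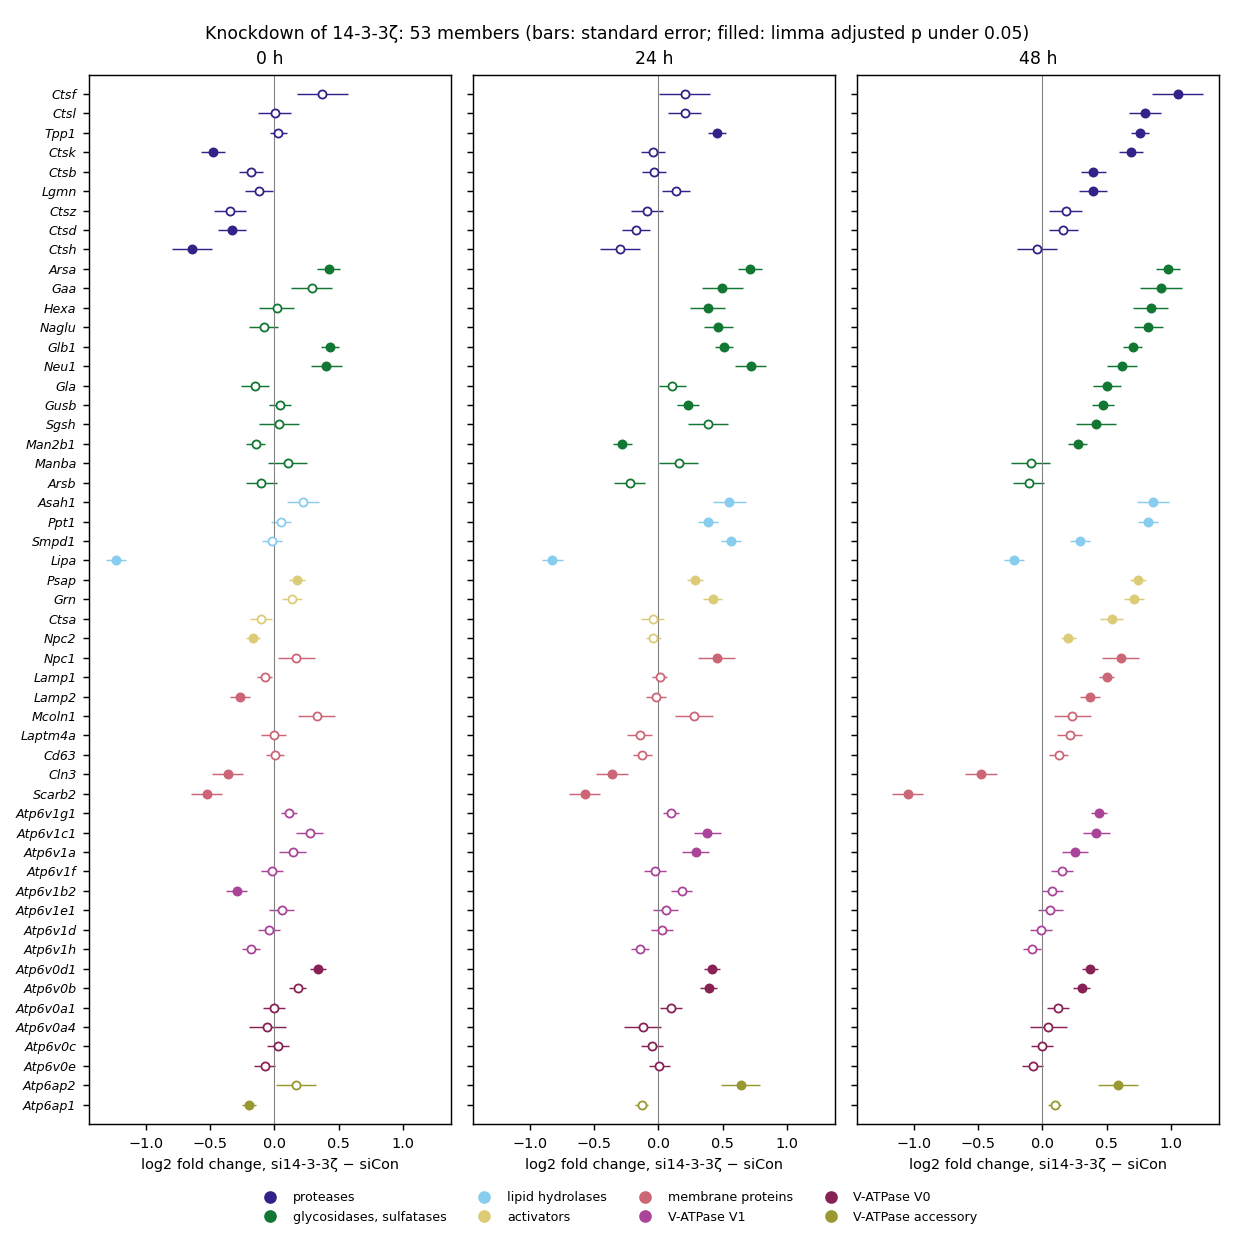
Log2 fold change of each of the 53 members in si14-3-3ζ against siCon cells (horizontal axis, log2(FPKM + 1) scale, bars the standard error) at 0, 24 and 48 h, grouped by role (colour) and ordered within a role by the value at 48 h, with filled points for a limma adjusted p under 0.05. Filled points to the right of 0 numbered 5, 19 and 32, and those to the left 10, 4 and 3.

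The proteases fell steeply with induction, 9 of 9 by 48 h in siCon cells (35.7% of loci). At 48 h 6 of 9 were higher in si14-3-3ζ cells (23.3% of loci). The steepest fall of the 53 belonged to Ctsk, cathepsin K, a collagen-degrading cysteine protease best known from osteoclasts (chromosome 3, 95303208 to 95313284 in mouse build NCBIM37). Ctsk stood at 127, 132, 158 and 138 FPKM in siCon cells at 0 h, 32.2, 40.4, 33.7 and 35.2 at 24 h, then 18.7, 20.0, 16.5 and 21.4 at 48 h. In si14-3-3ζ cells it stood at 93.3, 96.3, 104 and 103 at 0 h, 32.9, 38.7, 35.8 and 30.4 at 24 h, then 29.5, 34.9, 30.0 and 31.2 at 48 h. The order of the groups thus turned: si14-3-3ζ libraries lay below all siCon libraries at 0 h, overlapped them at 24 h and lay above them all at 48 h. The log2 difference with knockdown was -0.48 ± 0.09, adjusted p = 0.00121 at 0 h and 0.69 ± 0.09, adjusted p = 5e-06 at 48 h (± SE). The response of Ctsk to 48 h of induction differed by 1.17 ± 0.13, adjusted p = 5.8e-06, the largest such difference among the members.

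Ctsl, cathepsin L, the most abundant member, measured 1619.5, 2365, 1978 and 2472 FPKM at 0 h, 716, 1024, 821 and 938 at 24 h, then 611, 784, 671 and 758 at 48 h in siCon cells. Its values in si14-3-3ζ cells were 1831, 2156, 2218 and 2155 at 0 h, 917, 1033, 1078 and 974 at 24 h, then 1264, 1213, 1352 and 1073 at 48 h. The groups overlapped at 0 and 24 h and were apart at 48 h, when the difference was 0.80 ± 0.13, adjusted p = 3e-05. Under quantile normalization Ctsl was also higher at 0 h (0.38, adjusted p = 0.00615) and 24 h (0.49, adjusted p = 0.00038), where the log2 difference was otherwise 0.00 ± 0.13 and 0.20 ± 0.13. Ctsl did not pass for a change between 24 and 48 h in siCon cells (-0.30 ± 0.13, adjusted p = 0.0736) or in si14-3-3ζ cells (0.29 ± 0.13, adjusted p = 0.107). With the replicate number as a block it fell in the former (-0.30, adjusted p = 0.0136) and rose in the latter (0.29, adjusted p = 0.022). The fall in siCon cells also passed without library 1 of siCon at 0 h, or library 1 of siCon at 24 h (log2 -0.39 to -0.30, adjusted p = 0.025 to 0.0445). It passed as well under quantile normalization and in the libraries numbered 2 to 4 (log2 -0.33 to -0.26, adjusted p = 0.0248 to 0.0325).

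Ctsb, cathepsin B, measured 433, 439, 429 and 459.7 FPKM at 0 h and 158, 192, 149 and 203 at 48 h in siCon cells. With knockdown Ctsb measured 412, 373, 390.3 and 375 before induction and 247, 216, 239.7 and 216 after 48 h. At 0 h the knockdown libraries were the lower without overlap, though the difference did not pass (-0.18 ± 0.09, adjusted p = 0.186), and at 48 h they were the higher (0.40 ± 0.09, adjusted p = 0.00176). Tpp1, a tripeptidyl peptidase lost in a childhood form of neuronal ceroid lipofuscinosis, was at 129.8, 127, 126 and 130.4 FPKM in siCon and 136, 127, 127 and 134 in si14-3-3ζ cells at 0 h, values that overlapped. By 24 h Tpp1 had fallen to 36.4, 37.5, 34.2 and 37.3 in siCon and to 54.9, 43.5, 55.6 and 48.1 in si14-3-3ζ cells. Its values at 48 h were 30.5, 32.2, 28.8 and 29.4 against 51.0, 53.4, 51.3 and 51.3. The groups were apart at both later times (0.46 ± 0.07, adjusted p = 3.6e-05, and 0.76 ± 0.07, adjusted p = 2.4e-08). The smaller fall by 24 h (0.43 ± 0.10, adjusted p = 0.0254) did not pass without library 4 of siCon at 0 h, library 3 of siCon at 24 h, libraries 2 or 3 of si14-3-3ζ at 0 h, or libraries 1 or 3 of si14-3-3ζ at 24 h (log2 0.38 to 0.42, adjusted p = 0.0522 to 0.0649). Nor did it pass under quantile normalization and in the libraries numbered 2 to 4 (log2 0.40, adjusted p = 0.0843 to 0.124).

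Ctsf, cathepsin F, a cysteine protease, fell from 10.3, 11.4, 11.4 and 15.3 to 2.26, 3.11, 1.15 and 4.04 FPKM in siCon cells and from 14.9, 14.3, 16.6 and 17.5 to 5.21, 5.46, 6.89 and 7.46 in si14-3-3ζ cells. At 48 h its groups did not overlap and its rise with knockdown, 1.05 ± 0.20, adjusted p = 0.0002, was the largest of the 53. Ctsd, cathepsin D, the aspartic protease, measured 1017, 1056, 1147 and 1130.4 FPKM at 0 h and 384, 511, 414 and 564 at 48 h in siCon cells. With knockdown Ctsd measured 794, 865, 866 and 943 before induction and 423, 570.0, 519 and 577 after 48 h. The groups were thus apart at 0 h and overlapped at 48 h. At 48 h Ctsd was not called (0.16 ± 0.11, adjusted p = 0.232), but under quantile normalization it was higher (0.39, adjusted p = 0.00118). Its locus also carries 6330512M04Rik, and the FPKM of the 2 cannot be told apart. The lower level at 0 h (-0.33 ± 0.11, adjusted p = 0.0436) did not pass without libraries 2, 3 or 4 of siCon at 0 h, library 4 of siCon at 24 h, libraries 1, 2 or 3 of si14-3-3ζ at 0 h, library 3 of si14-3-3ζ at 24 h, or library 3 of si14-3-3ζ at 48 h (log2 -0.34 to -0.29, adjusted p = 0.0503 to 0.113). That call was also lost under quantile normalization and without a variance trend (log2 -0.33 to -0.17, adjusted p = 0.0514 to 0.184). The smaller fall by 48 h (0.49 ± 0.16, adjusted p = 0.0327) did not pass without libraries 3 or 4 of siCon at 0 h, libraries 1 or 3 of siCon at 48 h, libraries 1 or 3 of si14-3-3ζ at 0 h, or libraries 2, 3 or 4 of si14-3-3ζ at 48 h (log2 0.40 to 0.49, adjusted p = 0.0523 to 0.076). It was lost too in a fit to only the groups compared (log2 0.49, adjusted p = 0.062).

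Ctsh, cathepsin H, was near the lower limit, with siCon values of 1.27, 2.96, 1.55 and 2.09 FPKM at 0 h and 0.641, 0.695, 0.575 and 0.521 at 48 h. The si14-3-3ζ values were 1.01, 0.548, 0.613 and 1.37 at 0 h and 0.723, 0.408, 0.620 and 0.503 after 48 h. It was lower with knockdown at 0 h (-0.64 ± 0.15, adjusted p = 0.00619) although 1 si14-3-3ζ library, at 1.37 FPKM, lay within the siCon range, and the log2(FPKM + 1) scale understates changes at such levels. This call was lost in a fit to only the groups compared (log2 -0.64, adjusted p = 0.0559). Of the other proteases Lgmn, the asparaginyl endopeptidase that matures cathepsins, was higher at 48 h (0.39), and Ctsz, a carboxypeptidase, was at 0.18 and not called.

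**Figure D4:**
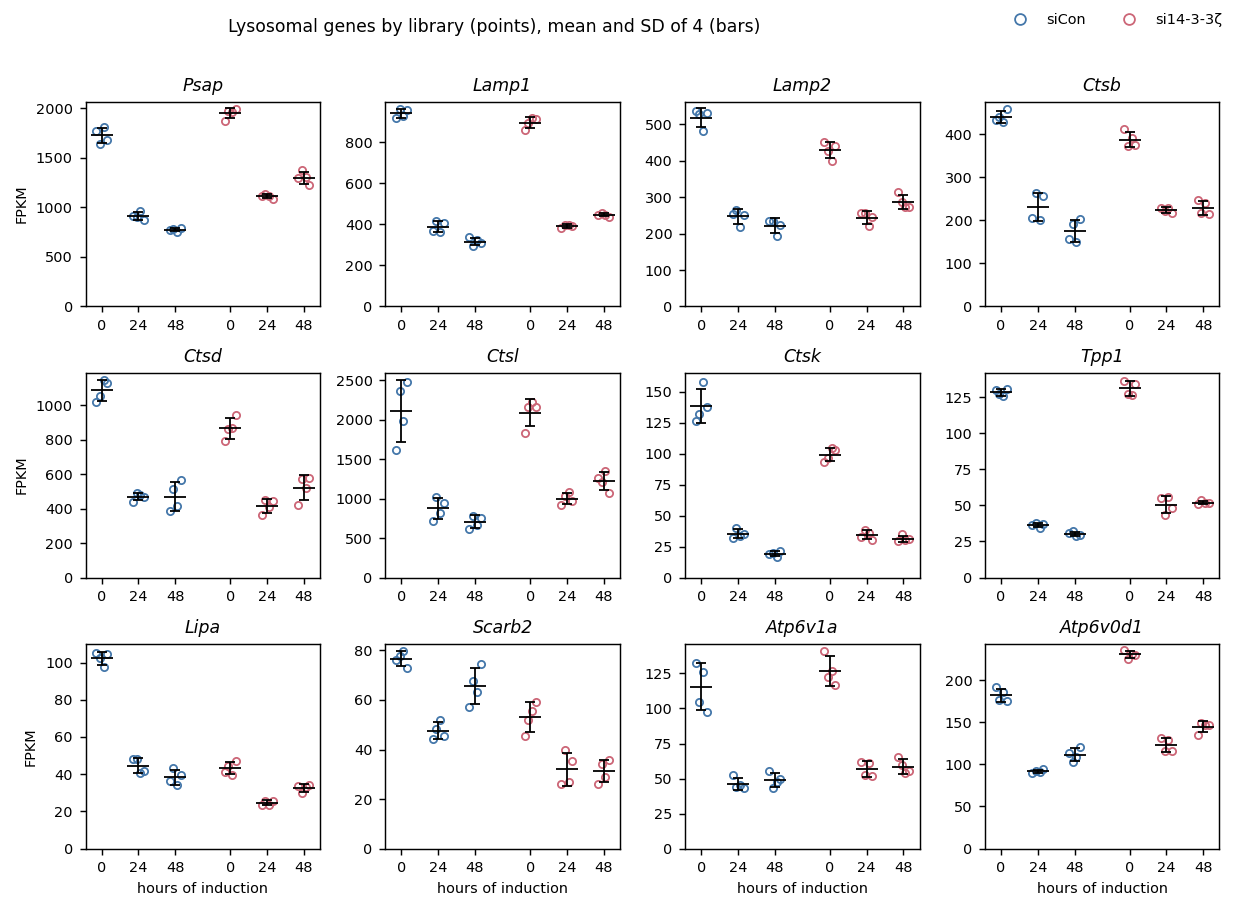
FPKM (vertical axes, each from 0) of 12 members in every library at 0, 24 and 48 h of induction (horizontal axis), blue siCon and red si14-3-3ζ, with the mean and SD of 4 libraries as black bars. At 48 h the si14-3-3ζ libraries of Psap, Lamp1, Lamp2, Ctsb, Ctsl, Ctsk, Tpp1 and Atp6v0d1 lay above all siCon libraries (Psap 1226 to 1376 against 756 to 794 FPKM), whereas those of Lipa and Scarb2 lay below.

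Of the 12 glycosidases and sulfatases, which remove sugars and sulfate from glycans and glycolipids, 10 were higher with knockdown at 48 h (23.3% of loci). Arsb (-0.11) and Manba, a β-mannosidase (-0.09), were not called. Arsa, arylsulfatase A, which desulfates sulfatide, had the largest rise of this role at 48 h (chromosome 15, 89302907 to 89307856, NCBIM37). It measured 60.6, 70.7, 65.6 and 83.2 FPKM in siCon and 88.2, 90.9, 99.1 and 96.3 in si14-3-3ζ cells at 0 h. At 24 h the values were 24.9, 26.9, 23.3 and 27.5 against 41.1, 41.2, 49.8 and 39.3, and at 48 h 23.8, 27.6, 24.5 and 29.3 against 51.1, 55.3, 51.3 and 52.9. The Arsa libraries did not overlap at any time. The log2 difference was 0.42 at 0 h, 0.71 at 24 h and 0.98 ± 0.09, adjusted p = 5e-08, at 48 h. The response to 48 h of induction also differed (0.56 ± 0.13, adjusted p = 0.00548).

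Glb1, the acid β-galactosidase, and Neu1, the sialidase that forms a complex with it, shared this order. Glb1 was at 39.9, 46.5, 43.8 and 46.3 against 57.1, 59.8, 60.9 and 61.4 FPKM at 0 h, siCon first. After 24 h Glb1 measured 22.1, 25.4, 23.2 and 22.5 against 33.9, 30.5, 36.5 and 33.2. The values at 48 h were 21.0, 24.8, 21.9 and 23.9 against 38.5, 38.0, 37.9 and 36.7. Neu1 was at 33.9, 37.6, 42.1 and 39.7 against 46.9, 48.7, 54.7 and 53.8 at 0 h. After 24 h Neu1 measured 8.82, 8.17, 12.6 and 10.3 against 16.1, 16.6, 19.3 and 15.6. The values at 48 h were 15.4, 10.4, 12.7 and 13.8 against 17.7, 21.9, 20.4 and 22.0. For both genes the si14-3-3ζ libraries lay above all siCon libraries at each time. The difference of Glb1 was 0.43 ± 0.07, adjusted p = 0.00022 at 0 h and 0.70 ± 0.07, adjusted p = 1.2e-07 at 48 h. That of Neu1 was 0.41 ± 0.12, adjusted p = 0.0223 and 0.62 ± 0.12, adjusted p = 0.00026. At 0 h the difference of Neu1 did not pass without library 1 of siCon at 0 h, or libraries 3 or 4 of si14-3-3ζ at 0 h (log2 0.35 to 0.38, adjusted p = 0.055 to 0.0717). It did not pass either in the libraries numbered 2 to 4 (log2 0.39, adjusted p = 0.0561). Glb1 did not pass for a rise from 24 to 48 h in si14-3-3ζ cells (0.17 ± 0.07, adjusted p = 0.0942), and passed under quantile normalization and with the replicate number as a block (log2 0.17 to 0.20, adjusted p = 0.0414 to 0.0492). Neu1 rose in siCon cells over the same day (0.36 ± 0.12, adjusted p = 0.0236). That rise did not pass without libraries 1 or 2 of siCon at 24 h, or libraries 1 or 4 of siCon at 48 h (log2 0.28 to 0.34, adjusted p = 0.0633 to 0.0991). Nor did the rise pass in a fit to only the groups compared and in the libraries numbered 2 to 4 (log2 0.24 to 0.36, adjusted p = 0.124 to 0.182). For neither gene did the response to 48 h of induction differ by the test (0.27 ± 0.10 with adjusted p = 0.066 for Glb1, and 0.21 ± 0.17 with adjusted p = 0.411 for Neu1). That of Glb1 passed without library 1 of siCon at 0 h or library 2 of siCon at 48 h (log2 0.31 and 0.31).

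Naglu, which cleaves N-acetylglucosamine from heparan sulfate, and Gaa, the acid α-glucosidase that degrades glycogen, had the deepest falls of this role in siCon cells (-2.68 and -2.51 by 48 h). Naglu fell from 107, 106, 97.6 and 117 to 17.0, 15.9, 14.6 and 15.8 FPKM in siCon cells and from 98.5, 101, 99.9 and 104 to 33.6, 32.0, 27.2 and 23.3 in si14-3-3ζ cells. It started from overlapping levels and ended apart, and its response differed by 0.91 ± 0.16, adjusted p = 0.00062. Gaa fell from 142, 194, 158 and 218 to 25.3, 35.2, 27.0 and 34.0 FPKM in siCon cells and from 184, 221, 213 and 247 to 49.6, 65.5, 58.0 and 59.5 in si14-3-3ζ cells. Gaa was higher with knockdown at 48 h (0.92 ± 0.16, adjusted p = 9.1e-05) and at 24 h (0.50 ± 0.16, adjusted p = 0.0244). The latter did not pass without libraries 1 or 3 of siCon at 24 h, or libraries 2 or 4 of si14-3-3ζ at 24 h (log2 0.34 to 0.48, adjusted p = 0.0524 to 0.113). It was also lost in a fit to only the groups compared and in the libraries numbered 2 to 4 (log2 0.38 to 0.50, adjusted p = 0.0563 to 0.0643). Its response to induction missed the threshold (0.63 ± 0.23, adjusted p = 0.0579). It passed without library 1 of siCon at 0 h, libraries 1 or 4 of siCon at 24 h, library 2 of siCon at 48 h, library 4 of si14-3-3ζ at 0 h, or library 1 of si14-3-3ζ at 48 h (log2 0.63 to 0.73, adjusted p = 0.0303 to 0.0498). It also passed under median-ratio scaling, under quantile normalization, in a fit to only the groups compared and in the libraries numbered 2 to 4 (log2 0.59 to 0.65, adjusted p = 0.0369 to 0.0424).

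Man2b1, the lysosomal α-mannosidase, changed sides. It was at 46.6, 48.2, 46.5 and 50.9 FPKM in siCon and 39.3, 46.7, 39.5 and 48.7 in si14-3-3ζ cells at 0 h, where the libraries overlapped. It measured 37.8, 37.7, 36.9 and 36.3 FPKM in siCon and 29.7, 33.9, 27.9 and 30.5 in si14-3-3ζ cells at 24 h. At 48 h it was at 21.9, 21.3, 23.0 and 22.9 against 26.9, 27.4, 27.1 and 27.0. Neither later time had any overlap. Knockdown thus lowered it at 24 h (-0.28 ± 0.07, adjusted p = 0.00565) and raised it at 48 h (0.27 ± 0.07, adjusted p = 0.00381). Its response to 48 h of induction differed by 0.42 ± 0.10, adjusted p = 0.00714. The other members of this role raised at 48 h were Hexa (0.84), the α subunit of β-hexosaminidase, Gla (0.50), the α-galactosidase, Gusb (0.47), the β-glucuronidase, and Sgsh (0.42), a heparan N-sulfatase. Only Sgsh among these had overlapping libraries at 48 h.

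Of the 4 lipid hydrolases 3, Asah1, Ppt1 and Smpd1, were higher with knockdown at 24 and at 48 h (14.5% and 23.3% of loci). Lipa was lower at each time. Lipa encodes the lysosomal acid lipase, which splits cholesteryl esters and triglycerides (chromosome 19, 34566808 to 34601964, NCBIM37). In siCon cells it fell from 105, 103, 97.4 and 105 FPKM at 0 h to 48.2, 48.3, 40.4 and 41.6 at 24 h, then 36.0, 43.3, 34.3 and 39.5 at 48 h. In si14-3-3ζ cells it was at 41.2, 44.4, 39.7 and 46.9 at 0 h, so that all its libraries there lay under all siCon libraries. It then stood at 23.6, 25.8, 23.5 and 25.8 at 24 h, then 33.5, 29.7, 33.2 and 34.1 at 48 h, again with no overlap with siCon. The deficit shrank from -1.23 ± 0.08, adjusted p = 1.8e-09 at 0 h to -0.83 at 24 h and -0.22 ± 0.08, adjusted p = 0.0283 at 48 h. The last of these did not pass without libraries 2 or 4 of siCon at 48 h, or library 2 of si14-3-3ζ at 48 h (log2 -0.20 to -0.16, adjusted p = 0.0652 to 0.109). That call was lost too under quantile normalization and in a fit to only the groups compared (log2 -0.22 to -0.18, adjusted p = 0.0945 to 0.0956). The response to induction differed by 1.01 ± 0.11, adjusted p = 5.8e-06, with a smaller fall in si14-3-3ζ cells. Between 24 and 48 h Lipa rose in si14-3-3ζ cells (0.39 ± 0.08, adjusted p = 0.00109) and fell in siCon cells (-0.22 ± 0.08, adjusted p = 0.0436). The fall of Lipa did not pass without libraries 2 or 4 of siCon at 0 h, libraries 1 or 2 of siCon at 24 h, or libraries 1, 3 or 4 of siCon at 48 h (log2 -0.23 to -0.17, adjusted p = 0.0503 to 0.149). It did not pass under median-ratio scaling, in a fit to only the groups compared, without a variance trend and in the libraries numbered 2 to 4 (log2 -0.22 to -0.15, adjusted p = 0.054 to 0.25) either.

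Asah1, acid ceramidase, was at 187, 223, 175 and 219 FPKM in siCon and 261, 225, 228 and 222 in si14-3-3ζ cells at 0 h. It fell to 57.3, 72.8, 44.1 and 70.8 against 119, 113, 107 and 101 at 48 h. Ppt1, a thioesterase that removes palmitate from proteins, was at 51.9, 50.1, 56.8 and 55.9 against 53.5, 55.6, 56.8 and 56.1 at 0 h. It then measured 23.4, 27.1, 23.0 and 24.6 against 44.1, 41.6, 50.7 and 40.3 at 48 h. Both overlapped at 0 h and were apart at 48 h (0.86 ± 0.13, adjusted p = 1.2e-05 for Asah1 and 0.82 ± 0.08, adjusted p = 4.7e-08 for Ppt1). Both fell less with induction in si14-3-3ζ cells (0.64 ± 0.18 and 0.77 ± 0.11). For Asah1 this did not pass in the libraries numbered 2 to 4 (0.66, adjusted p = 0.0561). At 24 h too the libraries of Asah1 (54.5 to 74.6 against 86.6 to 103 FPKM, siCon first) and Ppt1 (24.0 to 28.2 against 32.6 to 36.0) were apart. Smpd1, acid sphingomyelinase, had a response to induction that differed by 24 h in the limma test (0.59, adjusted p = 0.00631). It was at 31.0, 36.9, 35.8 and 35.6 against 31.1, 35.2, 34.9 and 35.9 FPKM at 0 h, siCon first. After 24 h Smpd1 measured 15.8, 16.8, 17.4 and 18.6 against 26.9, 25.0, 25.6 and 25.9. The values at 48 h were 20.3, 19.3, 21.6 and 22.3 against 23.4, 27.6, 24.1 and 28.0. The gap was wider at 24 h (0.57 ± 0.08, adjusted p = 1.3e-05) than at 48 h (0.29 ± 0.08, adjusted p = 0.00407), and this change in the gap itself was not tested. The smaller fall by 48 h (0.31 ± 0.11, adjusted p = 0.0499) was lost when any 1 of 19 of the 24 libraries was left out (log2 0.27 to 0.34, adjusted p = 0.0503 to 0.104). The call was kept without library 1 of siCon at 0 or at 24 h, library 4 of siCon at 48 h, or libraries 1 or 3 of si14-3-3ζ at 48 h. It was lost under quantile normalization, in a fit to only the groups compared and without a variance trend (log2 0.30 to 0.31, adjusted p = 0.0516 to 0.0911).

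The activators and protective proteins were all higher with knockdown at 48 h, 4 of 4 (23.3% of loci). Psap encodes prosaposin, the precursor of the saposins that present sphingolipids to their hydrolases (chromosome 10, 59740375 to 59765345, NCBIM37). It measured 1769.7, 1644, 1811 and 1686 FPKM at 0 h, 915, 905, 964 and 874 at 24 h, then 775, 781, 756 and 794 at 48 h in siCon cells. In si14-3-3ζ cells it measured 1878, 1974, 1959 and 1998 at 0 h, 1111, 1134, 1118 and 1088 at 24 h, then 1293, 1376, 1307 and 1226 at 48 h. No si14-3-3ζ library fell within the siCon range at any time. In FPKM the gap at 48 h was the widest of the 53, 776 ± 15.9 against 1300.1 ± 61.5 FPKM (mean ± SD, n = 4), a log2 difference of 0.74 ± 0.06, adjusted p = 6.2e-09. The rise at 0 h (0.18 ± 0.06, adjusted p = 0.0444) did not pass without libraries 1, 2 or 4 of siCon at 0 h, libraries 2 or 4 of siCon at 24 h, library 4 of siCon at 48 h, libraries 2, 3 or 4 of si14-3-3ζ at 0 h, libraries 2, 3 or 4 of si14-3-3ζ at 24 h, or library 3 of si14-3-3ζ at 48 h (log2 0.15 to 0.19, adjusted p = 0.0504 to 0.119). It was also lost in a fit to only the groups compared (log2 0.18, adjusted p = 0.133). Psap fell in siCon cells from 24 to 48 h (-0.24 ± 0.06, adjusted p = 0.00448) and rose in si14-3-3ζ cells (0.22 ± 0.06, adjusted p = 0.00915). Quantile normalization ended both calls (-0.20, adjusted p = 0.17, and 0.06, adjusted p = 0.746) and that of the difference of the responses to 48 h, 0.57 ± 0.08, adjusted p = 0.00013, which became 0.28, adjusted p = 0.208. The fall and the rise from 24 to 48 h were also lost in a fit to only the groups compared (-0.24, adjusted p = 0.0572, and 0.22, adjusted p = 0.0729).

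Ctsa, cathepsin A, the carboxypeptidase that protects Glb1 and Neu1 from degradation, was at 479, 599, 606 and 652 FPKM in siCon and 489, 544, 532 and 598 in si14-3-3ζ cells at 0 h. At 24 h it was at 185, 223, 198 and 219 against 189, 216, 206 and 188, and at 48 h at 123, 127, 118 and 135 against 178, 189, 179 and 186. Its groups overlapped until 24 h and parted at 48 h (0.54 ± 0.09, adjusted p = 3.6e-05), unlike those of Glb1 and Neu1, which were apart from the start. Grn, progranulin, was higher at 24 h (0.42) and 48 h (0.71). Npc2, which hands cholesterol to Npc1, was lower at 0 h (-0.17) and higher at 48 h (0.20).

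The membrane proteins were mixed: of 8, at 48 h, Lamp1, Lamp2 and Npc1 were higher with knockdown, and Scarb2 and Cln3 lower. Over all tested loci 23.3% were higher and 22.8% lower. Lamp1, a heavily glycosylated coat protein of the lysosomal membrane (chromosome 8, 13159135 to 13175338, NCBIM37), has the promoter with 4 copies of CACGTG. It was at 917, 961, 929 and 959 FPKM at 0 h, 370.0, 414, 364 and 408 at 24 h, then 336, 297, 322 and 309 at 48 h in siCon cells. The si14-3-3ζ cells held 858, 892, 917 and 912 at 0 h, 381, 399, 396 and 390.2 at 24 h, then 447, 456, 448 and 436 at 48 h. The groups overlapped at 0 and 24 h and parted at 48 h (0.50 ± 0.06, adjusted p = 8.2e-07). Between 24 and 48 h Lamp1 fell in siCon cells (-0.30 ± 0.06, adjusted p = 0.00046) and rose in si14-3-3ζ cells (0.19 ± 0.06, adjusted p = 0.0216). The rise of Lamp1 did not pass without library 1 of si14-3-3ζ at 24 h, or library 2 of si14-3-3ζ at 48 h (log2 0.18, adjusted p = 0.0527 to 0.0595). It was lost too in a fit to only the groups compared (log2 0.19, adjusted p = 0.0578).

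Lamp2, its paralogue and a receptor for chaperone-mediated autophagy in 1 of its isoforms, measured 535, 529, 481 and 530.3 FPKM in siCon and 452, 428, 400.5 and 439 in si14-3-3ζ cells at 0 h. Its levels became 235, 235, 192 and 224 against 315, 286, 272 and 274 at 48 h. The knockdown libraries were below the siCon libraries at 0 h and above them at 48 h (-0.27 ± 0.08, adjusted p = 0.0204, and 0.37 ± 0.08, adjusted p = 0.0006). The difference at 0 h did not pass under quantile normalization (-0.14, adjusted p = 0.352) nor without library 4 of siCon at 0 h, or library 3 of si14-3-3ζ at 0 h (log2 -0.26 to -0.24, adjusted p = 0.0517 to 0.0768). Lamp2 did not pass for a fall from 24 to 48 h in siCon cells (-0.16 ± 0.08, adjusted p = 0.129). It passed with the replicate block (-0.16, adjusted p = 0.0043) and without library 3 of siCon at 24 h (log2 -0.22, adjusted p = 0.0497).

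Scarb2 encodes LIMP-2, the receptor that carries β-glucocerebrosidase to the lysosome (chromosome 5, 92872899 to 92934634, NCBIM37). In siCon cells it was at 76.1, 78.0, 79.9 and 72.7 FPKM at 0 h, 44.2, 48.2, 52.0 and 45.6 at 24 h, then 57.1, 67.8, 63.1 and 74.4 at 48 h. It thus fell and then recovered (0.45 ± 0.12, adjusted p = 0.00634 from 24 to 48 h). In si14-3-3ζ cells it was at 45.5, 52.0, 55.6 and 59.3 at 0 h, 26.1, 39.6, 26.9 and 35.4 at 24 h, then 26.1, 34.0, 29.0 and 35.9 at 48 h. All these libraries lay below those of siCon at the same time, and no recovery was called (-0.02 ± 0.12, adjusted p = 0.923). The deficit was -0.53 ± 0.12, adjusted p = 0.00444 at 0 h, -0.57 ± 0.12, adjusted p = 0.00116 at 24 h and -1.05 ± 0.12, adjusted p = 7.1e-07 at 48 h. The larger fall by 48 h (-0.52 ± 0.17, adjusted p = 0.0369) was the only such difference downward among the 53. It did not pass without libraries 2 or 4 of siCon at 0 h, libraries 3 or 4 of siCon at 48 h, libraries 2, 3 or 4 of si14-3-3ζ at 0 h, or libraries 1 or 3 of si14-3-3ζ at 48 h (log2 -0.54 to -0.44, adjusted p = 0.0516 to 0.0777). In siCon cells alone the fall from 0 to 48 h did not pass (-0.23 ± 0.12, adjusted p = 0.0972), and with the replicate block it did (-0.23, adjusted p = 0.0344).

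Cln3, a membrane protein lost in juvenile neuronal ceroid lipofuscinosis, was lower at 0, 24 and 48 h (-0.36, -0.36 and -0.48), with overlapping libraries at the first 2 times. Its locus also carries Eif3c, a translation initiation factor, and the 2 cannot be told apart. Mcoln1, the lysosomal cation channel TRPML1, shares its locus with Pnpla6 and was not called at any time (0.33, 0.28 and 0.23). Npc1, the cholesterol exporter, was higher at 24 h (0.45) and 48 h (0.61). Cd63 and Laptm4a, a small membrane protein of late endosomes, were not called with knockdown at any time. Of these Cd63 fell by 48 h in both kinds of cell (-1.29 in siCon, -1.17 in si14-3-3ζ). Laptm4a went from 516 ± 43.2 to 409.7 ± 36.8 FPKM in siCon cells (mean ± SD, n = 4), a fall that passed (-0.33), and did not pass for one in si14-3-3ζ cells (-0.11).

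Fewer V-ATPase loci than hydrolases were called with knockdown: 6 of its 16 loci were raised at 48 h, with a median log2 difference of 0.11 over the 16, against 0.50 over the 25 hydrolases. Its fall with induction was wide, 15 of 16 lower at 48 h in siCon and 15 of 16 in si14-3-3ζ cells (35.7% and 29.7% of loci). Of the 8 subunits of V1, the sector that splits ATP, 3 were raised at 48 h, of 6 subunits of V0, the membrane rotor that moves protons, 2 were, and of 2 accessory proteins 1 was. The response from 0 to 48 h differed for 3 of the 16, Atp6v1b2 (0.37), Atp6v1g1 (0.33) and Atp6ap1 (0.29), against 17 of the 25 hydrolases. Over all tested loci 23.3% were raised at 48 h, and 8.69% differed upward in the response from 0 to 48 h. The contrast between roles, and of these small counts with those shares, is a description and was not tested. Of V1, Atp6v1c1 (0.42) and Atp6v1g1 (0.44) were raised at 48 h beside Atp6v1a, whereas Atp6v1b2, Atp6v1d, Atp6v1e1, Atp6v1f and Atp6v1h lay between -0.08 and 0.15 and were not called. Of V0, Atp6v0a1 (0.12), Atp6v0c (-0.01) and Atp6v0a4 (0.05) were not called. The last had a mean of 2.46 FPKM and shares its locus with D630045J12Rik. At 0 h Atp6v1b2 (-0.29) and Atp6ap1 (-0.20), an accessory protein needed for assembly of the pump, were lower with knockdown.

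Atp6v0d1, the subunit that joins the V0 rotor to V1 (chromosome 8, 108048365 to 108089947, NCBIM37), kept a near constant gap. It was at 192, 176, 185 and 175 FPKM in siCon and 236, 225, 231 and 230.3 in si14-3-3ζ cells at 0 h. The values were 90.0, 91.6, 90.8 and 94.3 against 131, 116, 129 and 115 at 24 h, and 114, 103, 109 and 120.4 against 135, 149.6, 147 and 146 at 48 h. No libraries overlapped, and the differences were 0.34 ± 0.06, adjusted p = 0.00054, 0.42 ± 0.06, adjusted p = 2.9e-05 and 0.37 ± 0.06, adjusted p = 4.3e-05 at the 3 times. Its responses to induction differed by 0.03 ± 0.09, adjusted p = 0.843, which did not pass. Atp6v0b, a proteolipid of the rotor, was higher at 24 h (0.39) and 48 h (0.30).

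Atp6v1a, the catalytic A subunit of V1, was at 133, 105, 126 and 97.8 FPKM in siCon and 141, 123, 127 and 116 in si14-3-3ζ cells at 0 h. After 24 h Atp6v1a measured 52.2, 43.9, 45.3 and 43.5 against 62.1, 52.2, 61.0 and 51.5. The values at 48 h were 55.3, 43.3, 47.2 and 49.9 against 65.3, 59.7, 53.8 and 55.2. It fell in both kinds of cell (-1.22 and -1.10 by 48 h). Its libraries overlapped between siCon and si14-3-3ζ cells at each time, and its calls at 24 h (0.29 ± 0.10, adjusted p = 0.0374) and 48 h (0.25 ± 0.10, adjusted p = 0.0455) lay near the threshold. The call at 24 h was lost without libraries 2, 3 or 4 of siCon at 24 h, or libraries 1 or 3 of si14-3-3ζ at 24 h (log2 0.24 to 0.28, adjusted p = 0.0777 to 0.112). It was not made under median-ratio scaling and under quantile normalization (log2 0.29 to 0.33, adjusted p = 0.0553 to 0.0677). The call at 48 h was lost without library 3 of siCon at 24 h, libraries 2, 3 or 4 of siCon at 48 h, libraries 2 or 3 of si14-3-3ζ at 0 h, or libraries 1 or 2 of si14-3-3ζ at 48 h (log2 0.20 to 0.27, adjusted p = 0.0506 to 0.14). It was lost as well under median-ratio scaling, in a fit to only the groups compared and without a variance trend (log2 0.25, adjusted p = 0.0551 to 0.0831).

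Atp6ap2, the (pro)renin receptor, a V-ATPase partner, had the largest knockdown difference of the pump genes. It was at 138, 106, 99.6 and 105 against 167, 114, 114 and 114 FPKM at 0 h, siCon first. After 24 h Atp6ap2 measured 46.9, 44.9, 32.8 and 44.3 against 83.6, 59.8, 65.7 and 56.9. The values at 48 h were 46.1, 34.9, 37.6 and 37.0 against 75.1, 56.3, 56.3 and 49.6. Library 1 was the highest of its group in each of the 6 groups. The groups were apart at 24 h (0.64 ± 0.15, adjusted p = 0.00337) and 48 h (0.59 ± 0.15, adjusted p = 0.00349).

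Atp6v0e, a small V0 subunit whose promoter holds TCACGTGA, did not share the fall. It was at 201, 189, 174 and 184 FPKM at 0 h, 187, 182, 155 and 168 at 24 h, then 220.0, 200.2, 190.0 and 245 at 48 h in siCon cells. The si14-3-3ζ cells held 199, 165, 168 and 179.7 at 0 h, 189, 179, 163 and 165 at 24 h, then 203, 202, 193 and 209 at 48 h. The ranges at 0 and 48 h overlapped in both. Its rise by 48 h in siCon cells (0.19 ± 0.08, adjusted p = 0.0479) was the only rise of a member called over that interval. It was lost under median-ratio scaling, in a fit to only the groups compared and without a variance trend (log2 0.19 to 0.21, adjusted p = 0.0598 to 0.109). It was also lost without libraries 2, 3 or 4 of siCon at 0 h, libraries 2 or 4 of siCon at 24 h, libraries 1 or 4 of siCon at 48 h, libraries 3 or 4 of si14-3-3ζ at 0 h, libraries 2, 3 or 4 of si14-3-3ζ at 24 h, or libraries 1, 2, 3 or 4 of si14-3-3ζ at 48 h (log2 0.12 to 0.19, adjusted p = 0.05 to 0.205). In si14-3-3ζ cells the change from 0 to 48 h did not pass (0.18 ± 0.08, adjusted p = 0.0617), and passed under quantile normalization and in the libraries numbered 2 to 4 (log2 0.24 to 0.28, adjusted p = 0.0225 to 0.0291). From 24 to 48 h it rose in siCon cells (0.30 ± 0.08, adjusted p = 0.00826), a call lost in a fit to only the groups compared (log2 0.30, adjusted p = 0.0598). In si14-3-3ζ cells its rise over that day did not pass (0.22 ± 0.08, adjusted p = 0.0655), but passed with the replicate number as a block and in the libraries numbered 2 to 4 (log2 0.22 to 0.25, adjusted p = 0.00718 to 0.0435). Atp6v0c, the main proteolipid, had the smallest fall by 48 h in siCon cells among the other pump genes (-0.40).

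Members with CACGTG in the promoter and those without were set side by side as a description. With knockdown at 48 h, 14 of the 18 with it were higher and 1 lower (median 0.46), and of the 27 with a promoter but without it 13 were higher and 2 lower (median 0.20). Over all tested loci 23.3% were higher and 22.8% lower. The sequence was present in 4 of 12 V-ATPase genes with a promoter and in 14 of 33 others, so role was not held equal. Induction of siCon cells for 48 h gave medians of -1.30 and -1.10. Members with no CACGTG in this window included Psap, Lamp2, Ctsk, Tpp1 and Ppt1, which rose with knockdown at 48 h as well. The sequence was present in the promoter of Cln3, which was lower at a locus it shares with Eif3c, and of Atp6v0e, which was not called.

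Of other lysosomal genes, in a list that holds none of the 53, 16 of 24 tested were higher with knockdown at 48 h and 1, Mfsd8, a lysosomal transporter, was lower (-0.80 ± 0.17). Over all tested loci 23.3% were higher and 22.8% lower at 48 h of knockdown, shares that stand beside each list below as well. By 48 h in siCon cells 20 of the 24 had fallen (35.7% of loci). Of its risers, Ctns, the cystine exporter, had a log2 difference of 0.76 ± 0.09, adjusted p = 1.1e-06. Of 16 tested genes for the sorting of lysosomal enzymes 10 were higher and 1 lower at 48 h, led by Sort1, sortilin, which was lower (-1.30 ± 0.28, adjusted p = 0.00073), and by Gnptab (0.45 ± 0.08) and Nagpa (0.62 ± 0.15), which build the mannose 6-phosphate tag. Unlike the hydrolases, Gnptab rose with induction, by 0.78 in siCon and 0.64 in si14-3-3ζ cells by 48 h.

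Among 13 tested genes of the MiT/TFE factors and the mTORC1 docking machinery 7 were higher with knockdown at 48 h (23.3% of loci). The folliculin gene Flcn had 1.05 ± 0.12, adjusted p = 9.8e-07 at 48 h and was already higher at 0 h (0.80 ± 0.12), and its partners Fnip2 and Fnip1 had 0.73 ± 0.11 and 0.55 ± 0.12. Of the factors themselves, named here after their values were seen, Tfeb (-0.37) and Tfe3 (0.02) were not called at 48 h and Mitf was higher (0.48 ± 0.18, adjusted p = 0.0359). Of 12 tested genes for fusion and tethering of late endosomes and lysosomes 7 were higher at 48 h (23.3% of loci). They were led by the HOPS subunits Vps41 (0.57 ± 0.07), Vps33a (0.44 ± 0.08) and Vps18 (0.38 ± 0.08). The response to 48 h of induction differed for 8 of the 24 other lysosomal genes, each upward, and for 1 of the 16 sorting genes, Sort1 (-1.14 ± 0.40). It also differed for 2 of the 12 fusion genes, Vps41 (0.47 ± 0.09) and Plekhm1 (-0.47 ± 0.13). The counts for the sorting and fusion genes lie near the background of 8.69% upward and 9.24% downward over all loci.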

How the data were processed

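TruSeq libraries were read in pairs on an Illumina HiSeq instrument. The authors aligned them with TopHat 2.0.11 (mouse build NCBIM37), and Cufflinks 2.2.0 gave the FPKM that were deposited, 1 value per locus and library, with no counts, so depth per library and its precision are unknown. Groups came from the labels. The members and lists were chosen with earlier results of these data known.

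Loci with at least 1 FPKM in at least 4 libraries (9251 of 9262) were tested on log2(FPKM + 1) with limma 3.58.1 in R 4.3.3. The design had 6 group means and a trended variance, and Benjamini-Hochberg adjustment ran over all 9251 loci, with calls at an adjusted p under 0.05. On this scale the changes of low genes come out too small. The code was tested on simulated data. Tables and plots used Python 3.11.15, pandas 2.3.3, numpy 2.4.6 and matplotlib 3.10.9.

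Values by library were given for 9 members (Lamp1, Lamp2, Ctsb, Ctsd, Ctsk, Ctsl, Psap, Atp6v0d1, Atp6v1a), for up to 4 called members with the largest rises and falls in each knockdown comparison and in siCon cells at 48 h against 0 h, at loci of 1 symbol and at least 1 FPKM, and for 4 with the smallest p for the difference of the responses at 48 h. For Lamp2, Ctsb, Ctsd, Ctsf, Ctsh, Naglu, Gaa, Asah1 and Ppt1 the text leaves out the values of single libraries at 24 h. Of each other list, up to 3 genes with the smallest p at 48 h of knockdown were named, and the called genes where 5 or fewer were called. Some genes that this rule names are not reported here. Positions are those of GENCODE M1 on NCBIM37, and promoters those of RefSeq on GRCm38.p6, which were searched by sequence only.

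Alternatives were a pseudocount of 0.1, no filter and a minimum mean of 5 FPKM, median-ratio and quantile scaling, only the groups compared, no variance trend, the replicate number as a block, each library left out, and, chosen after seeing the data, the 18 libraries numbered 2 to 4. Replicate numbers in the labels have no stated meaning. Same-numbered libraries deviated together from their group means (each of 4 pairs over r = 0.1) at 24 h of knockdown (0.101 to 0.443), in siCon cells at 24 h against 0 h (0.198 to 0.506), 48 h against 0 h (0.179 to 0.502) and 48 h against 24 h (0.264 to 0.569), and in si14-3-3ζ cells at 24 h against 0 h (0.135 to 0.546) and 48 h against 24 h (0.111 to 0.427). The fit without the block is the one reported, and for these comparisons the blocked value is given where it changed a call. Levels of all loci were shifted by scaling by at most 0.08 in the median log2 fold change. Single members moved further under quantile normalization. The difference of the responses to 48 h of Psap, for example, went from 0.57 to 0.28.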

Additional observations from a re-analysis of the deposited data

Results flagged for a closer look

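In 5 of 156 groups of 4 libraries, over the 26 members given by library, the highest or the lowest library lay far from the other 3. Chance gives about 1 such group in 20. They were Lamp2 in library 3 of siCon at 0 h (481 FPKM, the lowest), Ctsl in library 1 of si14-3-3ζ at 0 h (1831 FPKM, the lowest), Atp6ap2 in library 3 of siCon at 24 h (32.8 FPKM, the lowest) and in library 1 of si14-3-3ζ at 0 h (167 FPKM, the highest), and Tpp1 in library 2 of si14-3-3ζ at 48 h (53.4 FPKM, the highest).

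Of the same 26 members, 17 responded differently to 48 h of induction in si14-3-3ζ and siCon cells by the limma test of the difference itself. Some of the 26 had been chosen by the p of this same difference, so this count is a description, beside 8.69% of all loci that differed upward and 9.24% downward. Scarb2 fell more in si14-3-3ζ cells, with a log2 difference of -0.52. The others fell less, with differences of 1.17 for Ctsk, 1.01 for Lipa, 0.91 for Naglu, 0.79 for Ctsl, 0.77 for Ppt1, 0.73 for Tpp1, 0.64 for Lamp2, 0.64 for Asah1, 0.64 for Ctsa, 0.58 for Ctsb, 0.57 for Lamp1, 0.57 for Psap, 0.56 for Arsa, 0.49 for Ctsd, 0.42 for Man2b1 and 0.31 for Smpd1. By 24 h the response differed for 2 of them, Smpd1 (0.59) and Tpp1 (0.43). All of these comparisons use the siCon and si14-3-3ζ libraries at 0 h.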

How the results depend on the processing

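The counts of members higher and lower at 48 h of knockdown (32 and 3), of members lower by 24 and 48 h of induction in both kinds of cell, and of members with a smaller fall by 48 h in si14-3-3ζ cells (26) stayed within 1.5 times under each alternative that was fitted. Over the 26 members given by library and 11 comparisons, 9179 of the alternative values kept the call or its absence, 193 lost the call and 55 gained one. Of the values called in the main fit or in the alternative, 0 turned in sign. Changes of sign among values called in neither were not counted. With the replicate number as a block, 8 members in place of 5 were higher at 0 h of knockdown, 7 in place of 4 lower at 24 h, 1 in place of 0 higher by 48 h of induction of si14-3-3ζ cells, 2 in place of 1 lower there from 24 to 48 h, and 9 in place of 3 fell less by 24 h. The block also called the smaller fall by 48 h of Glb1 (0.27, adjusted p = 0.0309), Gaa (0.63, adjusted p = 6.4e-04) and Atp6ap2 (0.42, adjusted p = 0.0119), the higher level of Ctsd at 48 h (0.16, adjusted p = 0.0487) and the rise of Atp6v0e by 48 h in si14-3-3ζ cells (0.18, adjusted p = 0.00917), comparisons in which same-numbered libraries did not all deviate together. Quantile normalization gave 5 lower at 0 h of knockdown, 1 higher by 24 h and 1 by 48 h in si14-3-3ζ cells, 2 lower there from 24 to 48 h, and 1 that fell less by 24 h. The libraries numbered 2 to 4 gave 1, 2 and 1 for the last 3 of these counts by 48 h, from 24 to 48 h and by 24 h. Median-ratio scaling, a fit to only the groups compared and a fit without variance trend each left 0 members higher by 48 h in siCon cells. The groups compared alone also gave 4 in place of 7 higher from 24 to 48 h in siCon cells, and, like median-ratio scaling and a pseudocount of 0.1, 2 lower over that day in si14-3-3ζ cells.

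Leaving out each library in turn gave 3 to 5 members higher and 5 to 10 lower at 0 h of knockdown, 0 to 1 higher by 48 h in siCon and in si14-3-3ζ cells, 8 to 15 higher and 0 to 2 lower from 24 to 48 h in si14-3-3ζ cells, and 1 to 3 with a smaller fall by 24 h and 0 to 1 with a larger fall by 48 h. The count of members with a smaller fall by 48 h ranged from 22 to 28. The cause of these changes was not tested. With no counts deposited, the depth behind low values such as those of Ctsh is unknown.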
